A study of Mus musculus with 9 samples.

Results

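The 9 genes described here encode proteins that tether, dock and fuse insulin granules at the plasma membrane: the SNARE proteins Snap25, Stx1a and Vamp2, the synaptotagmins Syt7 and Syt13, the granule GTPases Rab3a and Rab27a, the Rab27a effector Sytl4 and the scaffold Pclo. They were chosen by symbol from the 56748 genes of the deposited count table; each symbol matched 1 row, and all 9 passed the filter on low counts. The counts come from 9 RNA-seq libraries of primary pancreatic islets of wt C57bl/6 mice in 3 groups of 3. Control islets received no treatment. Inflamed islets were exposed for 48 h to IL-1beta, TNF-alfa and IL6, and particle islets received the same cytokine mixture with polydopamine-coated mesoporous silica nanoparticles, named PD-G-MSNPs by the submitters. The series asks whether the particles protect islets under cytokines, so the particles are measured here only in the presence of cytokines. Whole islets were sequenced, and nothing in the labels says whether the 3 libraries of a group came from separate animals or islet preparations, so p-values measure the spread between these libraries, which may be technical.

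Insulin is stored in dense-core granules that are carried to the plasma membrane, docked there and fused with it when calcium enters the beta cell. Rab3a and Rab27a are small GTPases on the granule that recruit effectors, among them Sytl4 (granuphilin), which links the granule to the docking machinery. Fusion is driven by the SNARE complex, in which Vamp2 on the granule pairs with Stx1a and Snap25 on the plasma membrane. Synaptotagmins have C2 domains; Syt7 is a calcium sensor of fusion, whereas Syt13 lacks the usual calcium-binding residues.

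Total counts per library ranged from 17832949 to 55865759. Expression is given in CPM, counts scaled to a common library total with TMM factors, which corrects for differences in composition between libraries. Defining beta cell transcripts were present in every library: the summed level of 12 beta cell markers was 344000 to 361000 CPM in control, 124000 to 229000 CPM in inflamed and 87900 to 241000 CPM in particle islets. Nearly all of this sum was Ins1, Ins2 and Iapp. The other 9 markers summed to 6864 to 8927 CPM in control, 328 to 469 CPM in inflamed and 397 to 3931 CPM in particle islets. The particle libraries were unlike one another. Particle replicate 2 had 7990 CPM of 9 alpha cell markers and 3540 CPM of 6 delta and PP cell markers, against at most 481 and 133 CPM in the other particle libraries. Results that rest on 1 library are therefore also given without it. In these bulk samples, fewer cells of a type and less RNA per cell cannot be told apart.

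Promoter windows are shown for 3 members: Rab3a and Sytl4 were among the most reduced under cytokines, and Stx1a was not called. RefSeq windows on GRCm38.p6, an earlier build than that of the counts, were available for 5 members (Pclo, Stx1a, Rab3a, Rab27a and Sytl4; not Snap25, Vamp2, Syt7 or Syt13). The 250 bases before the annotated start are printed 5′ to 3′ on the gene's strand, at chr8:70754453-70754702 (forward strand) for the first Rab3a window, chrX:133981813-133982062 (reverse strand) for Sytl4 and chr5:135023232-135023481 (forward strand) for Stx1a. Capitals mark the core of the cyclic AMP response element, TGACG or its reverse complement, and the GC box, GGGCGG or its reverse complement.
Rab3a: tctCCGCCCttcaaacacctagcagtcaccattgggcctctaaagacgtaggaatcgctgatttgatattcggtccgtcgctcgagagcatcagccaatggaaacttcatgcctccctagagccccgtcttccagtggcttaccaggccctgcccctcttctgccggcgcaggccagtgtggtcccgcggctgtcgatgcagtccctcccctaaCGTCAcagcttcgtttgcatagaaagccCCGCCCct
Sytl4: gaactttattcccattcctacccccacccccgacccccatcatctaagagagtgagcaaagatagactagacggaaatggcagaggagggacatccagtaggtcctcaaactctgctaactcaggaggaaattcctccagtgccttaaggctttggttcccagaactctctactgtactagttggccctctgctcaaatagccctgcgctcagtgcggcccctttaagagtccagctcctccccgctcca
Stx1a: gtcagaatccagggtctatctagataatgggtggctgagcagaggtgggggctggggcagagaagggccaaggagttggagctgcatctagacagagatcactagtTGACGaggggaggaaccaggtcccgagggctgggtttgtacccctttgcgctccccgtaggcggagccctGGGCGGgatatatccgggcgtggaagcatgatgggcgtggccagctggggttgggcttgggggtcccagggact
The core TGACG was found in 1 window each of Rab3a, Rab27a and Stx1a, 3 of the 7 windows of these members, and in 17.8% of all 32851 windows of the same length. The GC box GGGCGG was in 4 of the 7 windows and in 32.7% of all windows. The Sytl4 window held neither. None of the 7 windows held the full element TGACGTCA (1.55% of all windows), the MARE-like TGCTGAC (3.81%) or an interferon response core (2.98%). An NF-kB-like motif was in 4 of 7 (45.8% of all) and the E-box CANNTG in 5 of 7 (66.2% of all). Both strands were searched, TGACG is contained in TGACGTCA, and a match is a description of the letters only. The first Rab3a window and the Stx1a window held both marked elements, and the second Rab3a window, not printed, held neither. The Pclo window held only the GC box, and each Rab27a window held 1 of the 2. The part of these elements in the levels was not tested.

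To measure the effect of cytokines, inflamed islets were compared with control islets. Of the 9 genes 7 fell and 0 rose (adjusted p under 0.05 in edgeR, by Benjamini and Hochberg's method over 17276 genes), where 19.0% of all genes tested were called lower. The reductions were unequal. Syt13, Sytl4, Rab3a and Rab27a fell 6.56- to 9.16-fold, Pclo fell 3.17-fold, and the SNAREs Snap25 and Vamp2 fell 2.09- and 1.90-fold. Stx1a and Syt7 were not called. The median log2 fold change of the 9 genes was -1.67, against 0.05 over all genes tested. The 7 calls were made under all 21 alternatives, including the omission of any 1 library.

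**Figure D1:**
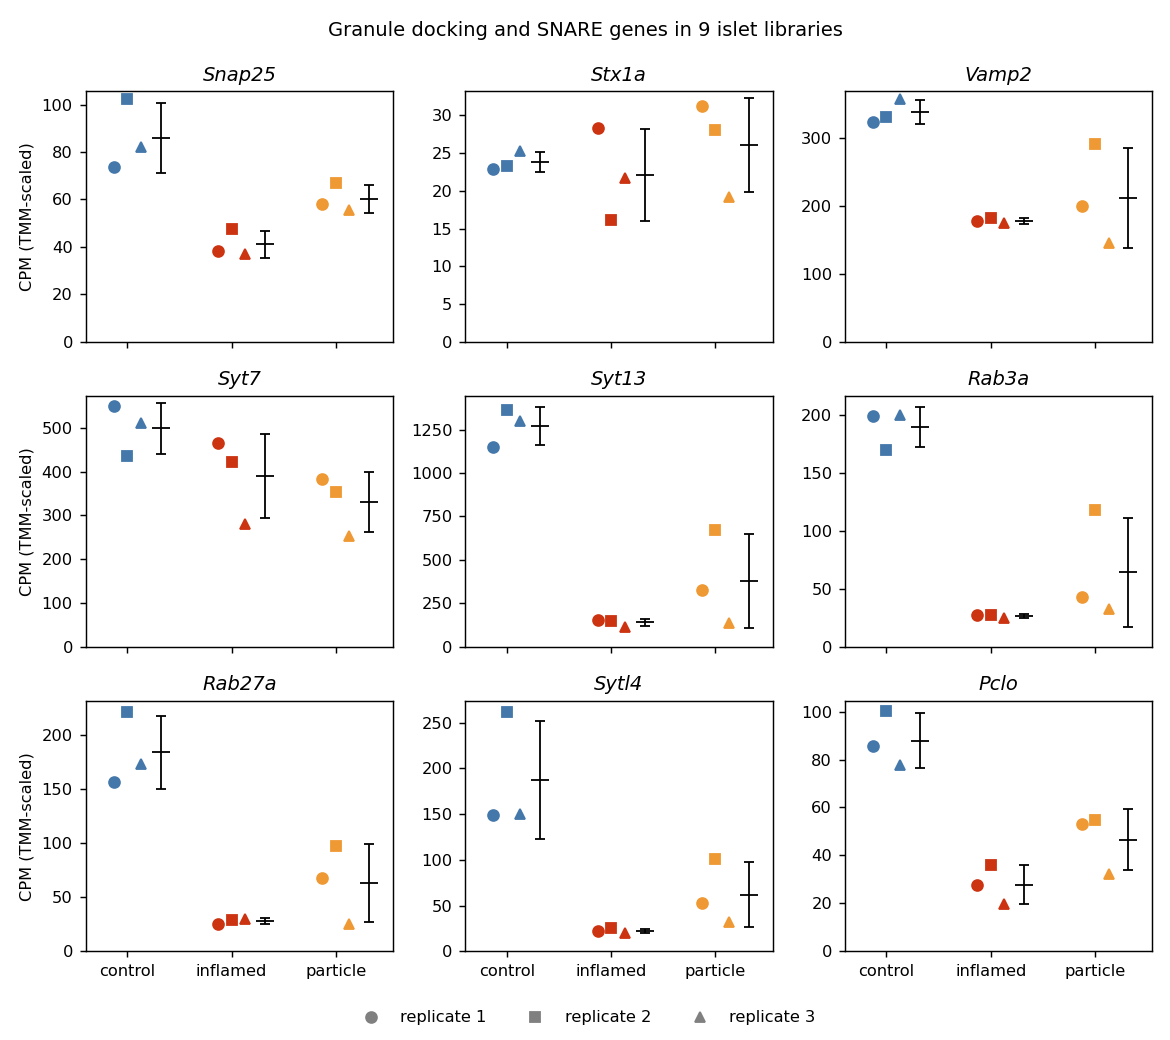
Expression of each of the 9 genes in CPM (linear axis from 0) in the 9 libraries, by group; symbols give the replicate number, and the black bar and whiskers the mean and SD of 3 libraries. For Syt13, Rab3a, Rab27a and Sytl4 the 3 inflamed libraries lie together far below the 3 controls, while the particle libraries are spread more widely, with replicate 2 highest and replicate 3 near or within the inflamed values.

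Among the SNAREs, Snap25 (ENSMUSG00000027273, GRCm39 chromosome 2 from 136555373 to 136624348), the plasma membrane SNARE that contributes a pair of helices to the complex, was expressed at 73.8, 102 and 81.9 CPM in control and 38.4, 47.6 and 37.1 CPM in inflamed islets. All inflamed libraries lay below all controls. The log2 fold change was -1.07 (SE 0.193, adjusted p = 0.00177, edgeR). Vamp2 (ENSMUSG00000020894, chromosome 11 from 68979316 to 68983210), the granule SNARE, was at 324, 332 and 358 CPM in control and 178, 182 and 174 CPM in inflamed islets, again without overlap (log2 fold change -0.92, SE 0.242, adjusted p = 0.0117, edgeR). Groups that did not overlap, with inflamed lower, were found for these 2 and 5 other members, and for 28.5% of all genes tested.

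Stx1a (ENSMUSG00000007207, chromosome 5 from 135052336 to 135079954), the syntaxin that pairs with Snap25, was not called. Its difference from Snap25 and Vamp2 was not tested. It was at 22.9, 23.2 and 25.3 CPM in control and 28.3, 16.2 and 21.7 CPM in inflamed islets. The groups overlapped, with inflamed replicate 1 above every control. The log2 fold change was -0.11 (SE 0.248, adjusted p = 0.746, edgeR), and its sign changed with library totals in place of TMM factors (0.052) and without inflamed replicate 2 (0.063).

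Of the synaptotagmins, Syt13 (ENSMUSG00000027220, chromosome 2 from 92745443 to 92786403) had the highest counts of the 9 genes in controls, at 1150, 1361 and 1299 CPM. In inflamed islets it was at 152, 149 and 116 CPM, and the log2 fold change was -3.19 (edgeR, SE 0.477, adjusted p = 6.45e-04). The groups were far apart, with every inflamed library at or below 12.0% of the control mean. Syt7 (ENSMUSG00000024743, chromosome 19 from 10366454 to 10430544) was at 551, 436 and 510 CPM in control and 466, 422 and 281 CPM in inflamed islets. Here the groups overlapped: inflamed replicate 1 lay above control replicate 2, and inflamed replicate 3 was the lowest. Its log2 fold change of -0.36 (SE 0.253) did not pass the test (adjusted p = 0.28, edgeR).

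The granule GTPases fell to similar extents. Rab3a (ENSMUSG00000031840, chromosome 8 from 71207328 to 71211323) was at 199, 170 and 199.8 CPM in control and 27.5, 27.0 and 24.9 CPM in inflamed islets (log2 fold change -2.84, SE 0.414, adjusted p = 5.75e-04, edgeR). The gene shares 29 bases with Mpv17l2 on the opposite strand, and it is not given whether counting used the strand, so reads from those bases cannot be assigned with certainty. Rab27a (ENSMUSG00000032202, chromosome 9 from 72952136 to 73004911) was at 157, 222 and 174 CPM in control and 25.2, 28.7 and 30.2 CPM in inflamed islets (log2 fold change -2.71, SE 0.399, adjusted p = 5.98e-04, edgeR). For both GTPases the inflamed libraries were close to each other and none overlapped a control.

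Sytl4 (ENSMUSG00000031255, chromosome X from 132837134 to 132882561, reverse strand), the docking effector of Rab27a, was at 149, 262 and 150.4 CPM in control and 22.3, 24.9 and 20.2 CPM in inflamed islets. Control replicate 2 was high, and the inflamed libraries were tightly grouped below all controls. The log2 fold change was -3.06 (SE 0.399, adjusted p = 3.14e-04, edgeR). Pclo (ENSMUSG00000061601, chromosome 5 from 14564932 to 14913473), a large scaffold of presynaptic active zones that is also found in beta cells, was at 85.5, 100.4 and 77.7 CPM in control and 27.5, 36.0 and 19.6 CPM in inflamed islets. Its log2 fold change was -1.67 (SE 0.271, adjusted p = 0.00101, edgeR), without overlap between groups.

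**Figure D2:**
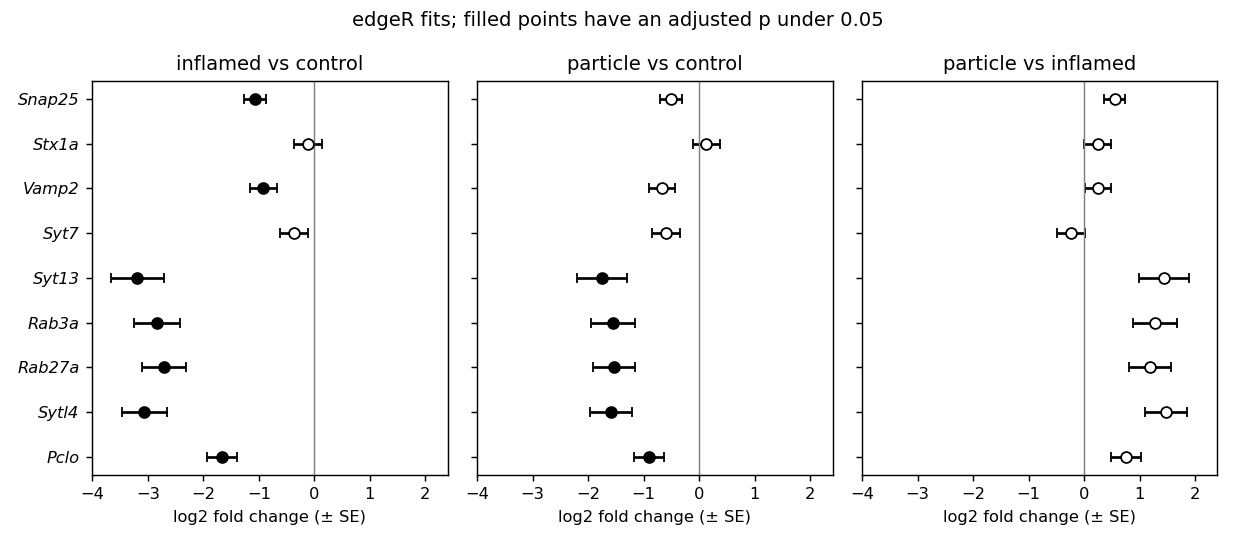
Log2 fold changes of the 9 genes (points, with whiskers of 1 SE) in the 3 comparisons, from 1 edgeR fit of all 9 libraries; filled points have an adjusted p under 0.05. In inflamed against control 7 points are filled, in particle against control 5, and in particle against inflamed 0.

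The order of the genes by level changed with these unequal reductions. On the FPKM scale of the deposited values, which divides by gene length, Syt13 was highest in control islets at 341 ± 34.1 FPKM (SD, n = 3), followed by Vamp2 at 89.6 ± 5.04, Rab3a at 85.9 ± 6.75 and Syt7 at 67.3 ± 6.82 FPKM. Vamp2 and Rab3a, neighbours in this order, differed by less than their spread. Rab27a at 48.1 ± 9.57 and Sytl4 at 37.0 ± 13.3 FPKM also lay within their spread of each other. Lower levels were found for Snap25 (12.8 ± 2.38 FPKM), Stx1a (9.03 ± 0.524 FPKM) and Pclo (3.96 ± 0.567 FPKM). In inflamed islets Syt7 at 50.7 ± 12.2, Vamp2 at 45.6 ± 1.27 and Syt13 at 36.0 ± 4.996 FPKM were the 3 highest, with Syt7 and Vamp2 within their spread. Rab3a followed at 11.6 ± 0.530, Stx1a at 8.05 ± 2.12, Rab27a at 7.06 ± 0.726, Snap25 at 5.90 ± 0.854, Sytl4 at 4.28 ± 0.464 and Pclo at 1.20 ± 0.357 FPKM, where Stx1a and Rab27a lay within the spread of Stx1a.

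Beta cell marker genes fell in the same libraries, to very different extents. Of the 12 beta cell markers 11 were called lower and 0 higher, against 19.0% and 20.7% of all genes; their median log2 fold change was -3.60, from -6.49 for G6pc2 to -0.64 for Ins2, which was not called. The summed level of the 9 markers other than Ins1, Ins2 and Iapp fell from 6864, 8927 and 7363 CPM in control to 469, 446 and 328 CPM in inflamed islets. Relative to that sum, the log2 ratio of every one of the 9 members was higher in inflamed than in control islets, by 1.03 for Syt13 to 4.08 for Stx1a. The largest part of the sum in control was Mafa (2781 CPM, log2 fold change -5.68). Not every marker in it fell more than every member. The estimate for Nkx6-1 (-2.55) was smaller in size than those of Syt13, Sytl4, Rab3a and Rab27a, and that for Ero1b (-3.11) smaller than that of Syt13. The other markers in the sum had larger estimates than any member. Relative to Ins1 and Ins2 together (322000, 309700 and 328200 CPM in control, 193000, 115700 and 220400 CPM in inflamed islets), the log2 ratio was lower by 2.29 for Syt13 (difference -2.29), and the difference was -2.10 for Sytl4, -1.93 for Rab3a and -1.79 for Rab27a. For Vamp2 the difference was -0.01 and for Snap25 -0.15, with SDs of 0.52 and 0.68 among inflamed libraries. For Pclo it was -0.79, and for Stx1a and Syt7 the log2 ratio to insulin was higher in inflamed islets, by 0.76 and 0.53. These ratios show unequal change within a library and were not tested.

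Markers of other cell types were counted in the same way, beside 19.0% of all genes called lower and 20.7% called higher. Of 9 alpha cell markers 7 were called lower and 0 higher, with a summed level of 7510 to 27600 CPM in control and 139 to 515 CPM in inflamed islets. Of 5 tested delta and PP cell markers 2 were called lower and 0 higher (2940 to 8440 against 174 to 742 CPM). Of 7 tested neuronal markers 3 were called lower and 0 higher (81.6 to 123 against 12.6 to 23.0 CPM), and Chat had no count in either group. Of 10 tested macrophage markers 9 were called higher and 0 lower (310 to 381 against 996 to 1090 CPM). Of 9 endothelial markers 6 were called lower and 0 higher, with summed levels of 40.3 to 97.9 CPM in control and 23.6 to 55.2 CPM in inflamed islets. Of 9 acinar cell markers 0 were called by edgeR, and 0 had an unadjusted p under 0.05. Their summed levels were spread widely within a group, at 22.4 to 1370 CPM in control and 27.5 to 2670 CPM in inflamed islets. Of 6 tested duct cell markers 2 were called higher and 1 lower, of 8 stellate cell markers 2 lower and 0 higher, and of 6 tested Schwann cell markers 1 lower and 0 higher. The part of these cells in the levels of the 9 genes was not tested.

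A wider list of 86 exocytosis genes in 5 groups, chosen by function with earlier results of these data known, places the 9 genes among their partners. Of these, Vamp7 was not found under that symbol, 4 had too few counts (Syt10, Syt15, Unc13c and Rims1) and 81 were tested. Between inflamed and control islets 23 were called lower and 10 higher, against 19.0% lower and 20.7% higher of all genes. The median log2 fold change was -0.30, against 0.05 over all genes. The number called higher was 5, 4 and 3 without control replicate 1, 2 or 3 and 3 without inflamed replicate 1.

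The counts of each group stand beside 19.0% of all genes called lower and 20.7% called higher. Of the other 11 SNAREs, 3 rose (Stx2, Stx3 and Vamp8), Vamp4 fell and 7 were not called. Stx3, a syntaxin also implicated in granule exocytosis, rose from 32.4 ± 0.158 to 82.2 ± 13.9 CPM (SD, n = 3), and Stx2 from 15.3 ± 0.380 to 35.1 ± 2.42 CPM. Vamp4, a SNARE of the trans-Golgi network, fell from 58.6 ± 5.26 to 40.2 ± 3.61 CPM. Among 15 SNARE chaperones, clamps and recycling factors, 2 fell and 2 rose. Cplx2, a complexin that binds the assembled SNARE complex, fell from 778 ± 101 to 31.2 ± 5.66 CPM (adjusted p = 4.73e-04 in edgeR, with -4.64 ± 0.633 as log2 fold change and SE); its estimate was larger in size than that of any of the 9 members, a difference that was not tested. Napb, which works with NSF to take SNARE complexes apart, rose from 6.06 ± 0.390 to 27.8 ± 3.03 CPM, and Stxbp6 fell from 19.0 ± 0.647 to 8.29 ± 1.30 CPM.

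Of 16 tested other members of the synaptotagmin and Doc2 families, 6 fell and 0 rose. For this and the next 2 groups, the shares over all genes were again 19.0% lower and 20.7% higher. Syt3 fell from 30.8 ± 2.14 to 0.992 ± 0.542 CPM, Doc2b from 7.69 ± 0.860 to 2.21 ± 1.19 CPM and Syt14 from 33.4 ± 5.46 to 20.6 ± 0.848 CPM. Of 21 other granule Rab GTPases and their regulators and effectors 7 fell and 4 rose. Rab37 fell from 217 ± 23.0 to 13.6 ± 6.48 CPM, Rab3d, a paralog of Rab3a, from 193 ± 45.9 to 50.04 ± 4.21 CPM, and Rph3al (Noc2), an effector of Rab3 and Rab27, from 199.6 ± 22.0 to 66.8 ± 16.7 CPM. Of 18 priming and scaffold genes 7 fell and 1 rose. Cadps (CAPS1), a granule priming factor, fell from 84.9 ± 14.6 to 15.1 ± 2.14 CPM, Rimbp2, a binding partner of RIM proteins, from 373 ± 106 to 30.6 ± 8.82 CPM, and Rapgef4 (EPAC2), a cyclic AMP sensor, from 51.1 ± 13.7 to 12.1 ± 2.08 CPM.

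**Figure D3:**
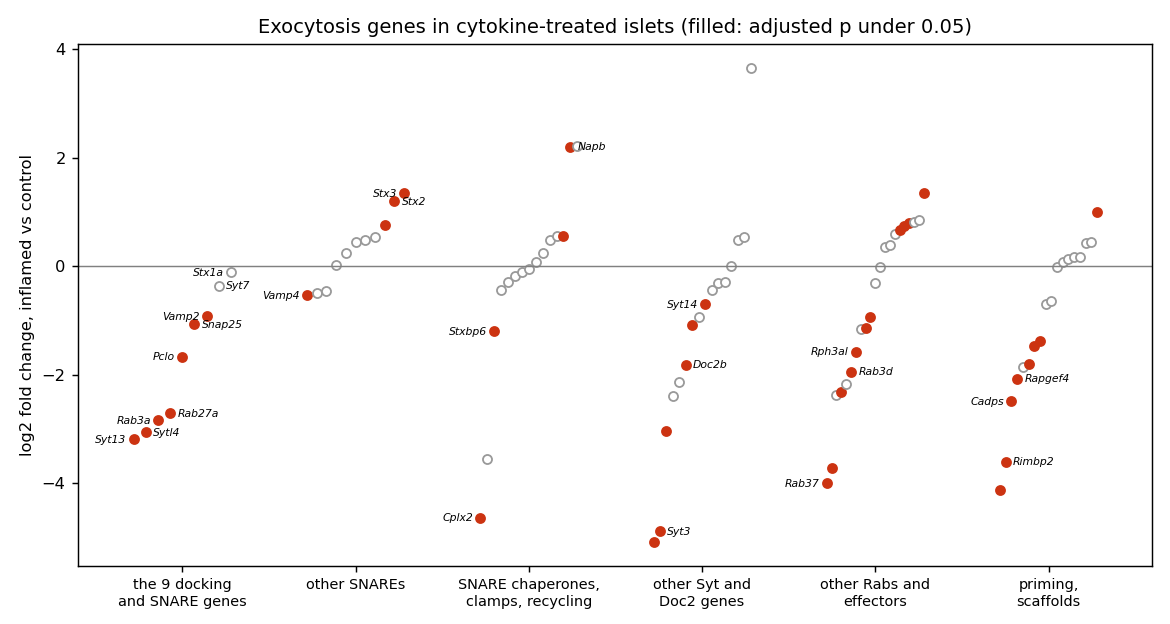
Log2 fold changes of inflamed against control islets for the 9 docking and SNARE genes and the 81 tested genes of the 5 wider groups, sorted within a group from lowest to highest; filled red points have an adjusted p under 0.05. Named points are the 9 genes and the up to 3 called genes with the smallest p in each group. The other SNAREs have 3 of 11 genes called higher and 1 lower, where 20.7% and 19.0% of all genes were called, and the 16 other synaptotagmins and Doc2 genes have 6 lower and 0 higher.

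The effect of the particles under cytokines was measured against inflamed islets. No member was called by edgeR, nor was any gene of the wider list or any of the 17276 genes (0.0% called higher and 0.0% lower). The means of 8 of the 9 genes were higher and that of Syt7 lower in particle islets. At an unadjusted p under 0.05 in edgeR, 6 members were higher and 0 lower, against 9.58% of all genes higher and 948 of the 17276 lower. Of the 81 tested genes of the wider list, 9 were higher (11.1%, near the share of all genes) and 3 lower at that p. The shift was not particular to the members. Of the 12 beta cell markers, 11 had a higher and 1 a lower estimate, and 0 were called. Their median log2 fold change was 1.66, against 0.75 for the members. The other tools gave 3 members called higher in DESeq2 (Syt13, Sytl4 and Rab3a) and 0 in limma-voom and in limma on FPKM. Without particle replicate 3, edgeR called 4 members higher (Syt13, Sytl4, Rab3a and Rab27a), together with 636 genes higher and 306 lower in all. Without particle replicate 2 no member was called, and the log2 fold changes were 0.50 for Rab3a, 0.73 for Syt13, 0.92 for Sytl4 and 0.73 for Rab27a, against 1.28, 1.44, 1.47 and 1.18 with all libraries. Relative to the beta cell markers other than Ins1, Ins2 and Iapp, the mean log2 ratio of every member was lower in particle than in inflamed islets. The differences ran from -0.13 for Sytl4 to -1.67 for Syt7. Particle replicate 2 had the lowest ratio of the particle libraries for every member. Replicates 1 and 3 lay above the inflamed mean for Sytl4 (-4.05 and -3.65 against -4.19) and Syt13 (-1.44 and -1.56 against -1.57). They lay below it for Syt7 (-1.20 and -0.65 against -0.11), Vamp2 and Stx1a, and on either side of it for the other members. Relative to Ins1 and Ins2 together every member was higher, by 0.13 for Syt7 to 1.67 for Sytl4. SDs among particle libraries were 0.61 to 1.54 and 0.69 to 1.17, and neither ratio was tested.

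Particle replicate 3 was the lowest particle library for all 9 genes, and replicate 2 the highest for 7 of them. Sytl4 was at 53.2, 101.2 and 31.6 CPM in particle replicates 1, 2 and 3, all above the inflamed maximum of 24.9 CPM (log2 fold change 1.47, SE 0.378, adjusted p = 0.147, edgeR, 0.0204 without particle replicate 3 and 0.366 without particle replicate 2). Rab3a was at 42.5, 118 and 32.1 CPM, also above all inflamed libraries (log2 fold change 1.28, SE 0.393, adjusted p = 0.182). Snap25 at 58.0, 67.1 and 55.7 CPM had the tightest particle values of the 3 genes whose groups did not overlap (log2 fold change 0.55, SE 0.192, adjusted p = 0.217). Groups without overlap, particle higher, were thus seen for 3 of 9 members and for 8.87% of all genes tested. Members that overlapped were Syt13 at 324, 672 and 134 CPM (log2 fold change 1.44, SE 0.447), Rab27a at 67.6, 97.5 and 25.1 CPM (1.18, SE 0.38) and Pclo at 53.1, 54.6 and 32.2 CPM (0.75, SE 0.266). Particle replicate 3 lay within the inflamed range for Syt13 and Pclo and just below it for Rab27a. The overlapping values of Vamp2 were 199.5, 291 and 146 CPM, where replicate 3 lay below every inflamed library, and its log2 fold change of 0.25 (SE 0.241) became -0.043 without particle replicate 2. Stx1a at 31.2, 28.01 and 19.1 CPM and Syt7 at 384, 354 and 252 CPM gave log2 fold changes of 0.24 (SE 0.248) and -0.24 (SE 0.253).

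Expressed as a share of the control mean, the 7 genes called lower under cytokines had a median of 14.5%, 15.6% and 16.4% in inflamed replicates 1, 2 and 3, and of 36.7%, 62.2% and 16.9% in particle replicates 1, 2 and 3. These 7 were chosen by their own reduction, so the inflamed values are a description. Particle replicate 2 was the highest particle library for each of the 7 genes. It also had the highest summed levels of particle islets for the beta (241000 CPM), alpha (7990 CPM), delta and PP (3540 CPM) and acinar cell markers (3190 CPM). The same held for the duct (546 CPM), endothelial (42.6 CPM), stellate (85.0 CPM) and neuronal markers (50.8 CPM). It did not hold for the Schwann (15.1 CPM) and macrophage markers (333 CPM). Without Ins1, Ins2 and Iapp, the beta cell markers summed to 881, 3931 and 397 CPM in particle replicates 1, 2 and 3. In inflamed islets that sum was 328 to 469 CPM. The acinar level was also high in inflamed replicate 3, at 2670 CPM. The part of all these cells in the levels of the 9 genes was not tested. Macrophage markers had summed levels of 333 to 494 CPM in particle and 996 to 1090 CPM in inflamed islets, with 0 of 10 tested called.

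**Figure D4:**
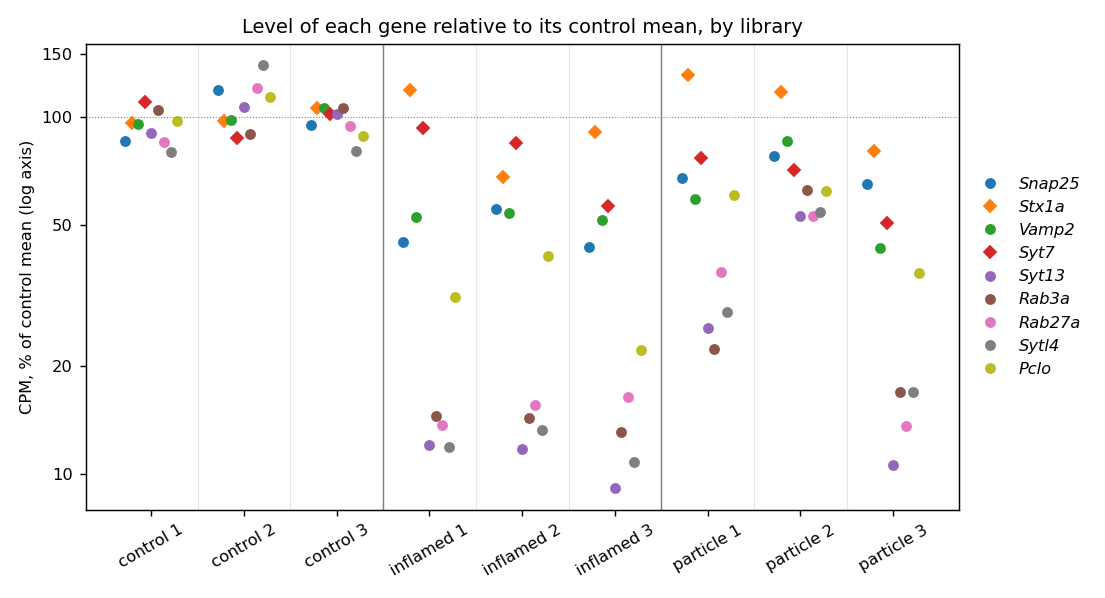
Level of each of the 9 genes in every library as a percentage of its control mean (log axis); diamonds mark Stx1a and Syt7, circles the 7 genes called lower in inflamed islets. In inflamed libraries Syt13, Sytl4, Rab3a and Rab27a lie between 9.09% and 16.4%; in particle replicate 2 they lie between 52.9% and 62.3%, and in particle replicate 3 between 10.6% and 16.9%.

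Particle islets were last compared with control islets, which serve as the reference in the first comparison too. Of the 9 genes 5 were called lower (Syt13, Sytl4, Rab3a, Rab27a and Pclo) and 0 higher, where 5.92% of all genes tested were called lower. Over all genes the calls were 1022 lower and 1961 higher, and 597 lower and 3193 higher with library totals in place of TMM factors. The groups did not overlap, with particle lower, for 8 of 9 genes and for 20.6% of all genes. Log2 fold changes were -1.75 for Syt13 (SE 0.451, adjusted p = 0.0247), -1.59 for Sytl4 (SE 0.377, adjusted p = 0.0177), -1.56 for Rab3a (SE 0.395, adjusted p = 0.023), -1.54 for Rab27a (SE 0.382, adjusted p = 0.0215) and -0.91 for Pclo (SE 0.266, adjusted p = 0.0383), all in edgeR's fit. Pclo was not called with library totals in place of TMM factors (adjusted p = 0.12, edgeR). Snap25 (-0.51, SE 0.192, adjusted p = 0.0872), Vamp2 (-0.67, SE 0.241, adjusted p = 0.0762) and Syt7 (-0.60, SE 0.253, adjusted p = 0.125) were not called by edgeR and were called by DESeq2. For Stx1a the log2 fold change was 0.13 (SE 0.248, adjusted p = 0.75), and -0.018 without particle replicate 1.

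The number of members called in this comparison rested on single libraries. It was 3, 1 and 1 without control replicate 1, 2 or 3, 0 without particle replicate 1 and 3 without particle replicate 3. Over all omissions it ranged from 0 to 6, against 5 with all libraries. The calls over all genes moved too, with 224 to 2121 lower against 1022. Without particle replicate 2 the log2 fold changes were larger in size, at -2.51 for Syt13, -2.18 for Sytl4 and -2.38 for Rab3a. Of the wider list 11 genes were called lower and 4 higher (Stx2, Stx3, Napb and Syt4), against 5.92% and 11.4% of all genes. The 11 were 7, 3 and 3 without control replicate 1, 2 or 3, and 2, 18 and 5 without particle replicate 1, 2 or 3. Cplx2, at 160 ± 145 CPM in particle islets, Rab37 at 53.9 ± 38.0 CPM and Cadps at 31.6 ± 12.9 CPM were among the 11.

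The genes whose pattern over the 9 libraries was most like that of the 9 members were Kif12, Tspyl2, Adgrl1, Eml3 and Pcx, among 10229 candidates (protein-coding, 5 CPM or more on average). Likeness was Pearson's r of log2(CPM + 0.5) with the mean of the standardised values of the members, 0.997 for Kif12 and Tspyl2 and 0.996 for Adgrl1, Eml3 and Pcx. The 9 libraries fall into groups, so these values mostly reflect the difference between control and inflamed libraries and are given as a description. The members did not all share this pattern. Their r with the mean of the other members was 0.291 for Stx1a and 0.603 for Syt7, and 0.872 to 0.993 for the rest. Pcx, the pyruvate carboxylase of the mitochondrion, was at 264 ± 0.767 CPM in control, 45.1 ± 9.34 CPM in inflamed and 114, 162 and 42.8 CPM in particle replicates 1, 2 and 3. Kif12, a kinesin, was at 524 ± 56.2 and 96.4 ± 28.9 CPM in control and inflamed islets and 192 ± 114 CPM in particle islets. For both genes particle replicate 2 was the highest particle library, and replicate 3 lay within the inflamed range.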

How the data were processed

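Total RNA was sequenced in 9 islet libraries. The authors deposited raw read counts for each gene and FPKM values (fragments per kilobase of gene length, scaled by 1 constant per library of 0.86 to 1.19 times its total count). HTSeq and DESeq2 were used with the GRCm39 build, per the submitters' processing notes; versions, aligner and strand setting are not given in the sources used here. Groups were taken from the sample titles; control columns carry no group word and were matched by number as the set left after the other columns.

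The test of the counts was that of edgeR 4.0.16 (R 4.3.3): filterByExpr (minimum count 10), TMM factors, robust quasi-likelihood fits of all 9 libraries, Benjamini-Hochberg adjustment within a comparison, and a call at an adjusted p under 0.05. SEs were derived as the size of the log2 fold change over the root of F. Alternatives used DESeq2 1.42.0, limma 3.58.1 (voom, or log2(FPKM + 1) and log2(FPKM + 0.1)), other scalings and filters, a replicate block and the omission of each library. Replicates differed by chi-square statistics of 44.2 to 209 per degree of freedom, so none was a duplicate.

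The members and lists were chosen with earlier results of these data known. Named in the wider list are up to 3 called genes per group with the smallest p for inflamed against control.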

Additional observations from a re-analysis of the deposited data

How the results depend on the processing

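Between inflamed and control islets the 7 lower members were called under all 21 alternatives. Stx1a reversed, to 0.052 with library totals and 0.063 without inflamed replicate 2 (-0.34 to 0.063 with a library omitted). All genes lower ranged from 2401 to 3588 and higher from 2278 to 3786 with a library omitted (2278 without control replicate 3), and the wider list's higher calls from 3 to 13.

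For particle against inflamed, DESeq2 called 3 members and 5 wider genes higher, and 296 genes lower and 487 higher. With no filter on low counts 1 wider gene was higher, and 101 genes lower and 120 higher. Limma-voom called 7 lower and 1 higher, limma on log2(FPKM + 1) 10 lower, limma on log2(FPKM + 0.1) 6 lower and 5 higher, and library totals 1 higher. With a library omitted, members called higher ranged from 0 to 4, wider genes from 0 to 6 higher and 0 to 2 lower, and all genes from 0 to 636 higher and 0 to 306 lower, the upper ends without particle replicate 3. Vamp2 reversed to -0.043 without particle replicate 2 (-0.043 to 0.47 with a library omitted).

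For particle against control, DESeq2 called 8 members and 19 wider genes lower and 1940 genes lower. Library totals gave 7 wider genes higher, and 597 genes lower and 3193 higher; this shifted the median of all genes by 0.27 (log2) here and by 0.18 for inflamed against control, where the calls became 2605 lower and 4240 higher. Limma on log2(FPKM + 1) and log2(FPKM + 0.1) called 2022 and 1622 lower. With a library omitted, members lower ranged from 0 to 6, wider genes lower from 2 to 18, all genes lower from 224 to 2121 and higher from 887 to 2424. Stx1a reversed to -0.018 without particle replicate 1 (-0.018 to 0.31 with a library omitted). The cause of these changes was not tested, beyond the smaller number of samples where a library was omitted.

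Same-numbered replicates of 2 groups deviated together with correlations of -0.224 to 0.151, so the numbers were not taken to pair the samples, and not every library correlated best with its own number. With the replicate block the members called were 7 lower, 0 and 5 lower in the 3 comparisons, the same genes as without it, and all genes called 2964 lower and 3152 higher, 0 and 0, and 970 lower and 1628 higher. The number of libraries (3 per group) and their spread limit the precision; the lowest count of a member in any library was 353.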

Other observations

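Some genes of the wider list outside the naming rule were picked after their values were seen. Rab3b, a paralog of Rab3a, rose from 86.4 ± 29.0 CPM in control to 219 ± 45.0 CPM in inflamed islets (SD, n = 3; log2 fold change 1.34, SE 0.386, adjusted p = 0.0179 in edgeR), while Rab3a and Rab3d fell. Per length, Rab3b was at 24.7 ± 7.95 FPKM against 85.9 ± 6.75 for Rab3a in control, and at 60.6 ± 11.7 against 11.6 ± 0.530 FPKM in inflamed islets. In particle islets Rab3b was at 119.6 ± 70.1 CPM and overlapped both groups. Baiap3, a relative of the priming factor Munc13, fell from 526 ± 41.5 to 30.1 ± 17.7 CPM and was at 173, 182 and 26.9 CPM in particle replicates 1, 2 and 3.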
